A study of Mus musculus with 14 samples.

Results

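CpG-dense tiles are the stretches of the genome where the cytosines read by reduced representation bisulphite sequencing lie closest together. The autosomes were divided into tiles of 1000 bases, and a tile was called dense when 20 or more cytosines, counted per strand, were listed in all 10 methylation libraries. A CpG read on both strands therefore counts as 2 positions. The rule found 14409 dense tiles among 108523 autosomal tiles with 3 or more shared positions, and it used no methylation value. The dense tiles held 644426 positions, 53.7% of those in all tested tiles, with a median of 38 and at most 197 per tile. Just outside the rule, the 627 tiles with 19 positions averaged 19.4% methylation in wildtype fibroblasts, and just inside it the 577 tiles with 20 positions averaged 17.8%.

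The study took fibroblasts of mouse tails, with the genotype labels wildtype and AID-null, and expressed 4 transcription factors in them, Oct4, Sox2, Klf4 and cMyc, to reprogram them towards pluripotency. Each genotype gave 1 methylation library of untreated fibroblasts, 1 of the bulk culture after 3 weeks of factor expression, and 3 of clones picked at 2 weeks and taken at 3 weeks. Bulk cultures and clones were thus both taken at 3 weeks, so the clones are not a later time point. The word stages below names these 3 kinds of sample. RNA was sequenced in 4 further libraries, 1 for each genotype in fibroblasts and in the bulk culture, with none from clones. The labels do not say how many animals were used or whether clones came from separate cultures, so p-values over clones measure the spread between these clones, and the lone bulk and fibroblast libraries have no replicate.

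CpG islands are stretches of DNA rich in CpG that cover the start sites of most widely used genes and are usually free of methylation. A small set of them carries methylation in somatic cells, including promoters of germ cell genes, and imprinted genes carry it on 1 parental copy. Conversion of fibroblasts to pluripotent cells is known to be accompanied by loss of methylation at some promoters and by gain at others.

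The names "wildtype" and "AID-null" mean the libraries so labelled throughout. Xist, the RNA of the inactive X chromosome, was seen under the wildtype label, with 456 FPKM in fibroblasts and 149 FPKM at 3 weeks, and was near 0 under the AID-null label, with 0.99 and 1.78 FPKM. The Y-linked gene Eif2s3y was listed at 0 under the wildtype label and reached 184 and 274 FPKM under the AID-null label. Genotype and sex therefore cannot be told apart, which holds for each genotype comparison below, and X-linked tiles were kept out. The coverage summed over listed positions was 222945430 to 296572452 cytosine calls per library, in which a read over several CpGs counts once at each, and dense tiles had a median of 5663 to 7493 calls per library. Mitochondrial cytosines, which are expected to be unmethylated, read as methylated at 0.083% to 0.142%. The 6 fibroblast markers summed to 62500 and 73200 FPKM in wildtype and AID-null fibroblasts and to 1120 and 6580 FPKM at 3 weeks, with none of the 6 at 0 in any library. The 6 pluripotency markers summed to 5.85 and 8.85 FPKM in fibroblasts, with 3 and 1 of the 6 at 0, and to 7880 and 6790 FPKM at 3 weeks with none at 0. All 6 macrophage markers were detected in both fibroblast libraries, with sums of 1520 and 2410 FPKM, and the sums at 3 weeks were 155 FPKM in wildtype, with 2 of the 6 at 0, and 1200 FPKM in AID-null with none at 0. The 5 muscle markers summed to 11.2 and 29.4 FPKM in fibroblasts (1 and 0 at 0) and to 205 and 139 FPKM at 3 weeks (2 and 1 at 0). The 5 keratinocyte markers summed to 14.5 and 12.6 FPKM in fibroblasts (1 and 4 at 0) and to 55.0 and 2.63 FPKM at 3 weeks (1 and 2 at 0).

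The label of CpG islands was checked against promoter sequences, since the files name no gene and no mm9 annotation was used. RefSeq promoter sequences (GRCm38.p6, 250 bases before to 50 after each start) were paired with the listed mm9 positions by the spacing of their CpGs, which needed at least 10 listed CpG sites at 1 place on the same chromosome. Of 31396 autosomal promoters, 6364 were paired and 0 found a match on a wrong chromosome used as a check. The dense tiles took 5677 of them, from 5089 genes, in 4602 tiles or 31.9% of all dense tiles. Those promoters had a median GC content of 68.7% and an observed to expected CpG ratio of 0.892, against 53.0% and 0.389 over all autosomal promoters. The need for 10 sites favours dense tiles, so the share is a description only. A dense tile without a pairing may still cover a promoter, and its gene is not named here. All tile positions below are mm9.

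Promoter sequences of 8 dense tiles are shown first, because the results turn on them. They are 4 of germ cell genes that were methylated in fibroblasts and lost part of it. A further 2 are of imprinted genes, of which only the first passed the test in clones. Of the remaining sequences, 1 gained methylation and 1 stayed free of it as its RNA level rose. Each is the 250 bases before the start, 5′ to 3′ on the gene's strand, and capitals mark the CpGs listed in all 10 libraries. The count of listed CpGs ran from 4 of 21 in Dnmt3b to 23 of 31 in Ddx4.
Mael: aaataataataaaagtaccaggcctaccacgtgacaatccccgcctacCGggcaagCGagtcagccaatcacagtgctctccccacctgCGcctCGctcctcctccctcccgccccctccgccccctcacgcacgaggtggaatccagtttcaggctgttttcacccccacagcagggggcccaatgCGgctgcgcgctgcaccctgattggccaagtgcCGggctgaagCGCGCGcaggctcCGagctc
Ddx4: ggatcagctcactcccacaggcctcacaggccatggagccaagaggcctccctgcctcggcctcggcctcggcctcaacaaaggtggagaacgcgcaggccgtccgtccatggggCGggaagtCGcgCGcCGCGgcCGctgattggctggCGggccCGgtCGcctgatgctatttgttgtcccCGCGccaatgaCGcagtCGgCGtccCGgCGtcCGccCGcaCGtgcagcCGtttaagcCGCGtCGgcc
Hormad1: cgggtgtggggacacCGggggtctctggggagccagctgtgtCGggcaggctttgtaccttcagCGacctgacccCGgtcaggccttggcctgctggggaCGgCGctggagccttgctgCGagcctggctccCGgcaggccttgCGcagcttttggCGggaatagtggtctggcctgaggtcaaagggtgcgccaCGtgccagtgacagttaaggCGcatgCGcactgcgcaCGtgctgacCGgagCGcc
Slc25a31: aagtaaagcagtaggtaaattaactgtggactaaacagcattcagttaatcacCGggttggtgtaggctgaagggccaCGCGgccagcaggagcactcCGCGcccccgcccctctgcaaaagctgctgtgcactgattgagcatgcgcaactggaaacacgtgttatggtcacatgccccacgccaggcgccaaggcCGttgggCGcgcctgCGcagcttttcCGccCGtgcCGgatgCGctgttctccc
Igf2r: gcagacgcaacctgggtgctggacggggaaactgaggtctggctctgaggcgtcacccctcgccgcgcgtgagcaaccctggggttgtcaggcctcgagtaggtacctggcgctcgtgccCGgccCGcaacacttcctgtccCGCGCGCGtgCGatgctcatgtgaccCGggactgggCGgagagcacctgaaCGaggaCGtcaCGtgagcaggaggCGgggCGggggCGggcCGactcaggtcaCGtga
Plagl1: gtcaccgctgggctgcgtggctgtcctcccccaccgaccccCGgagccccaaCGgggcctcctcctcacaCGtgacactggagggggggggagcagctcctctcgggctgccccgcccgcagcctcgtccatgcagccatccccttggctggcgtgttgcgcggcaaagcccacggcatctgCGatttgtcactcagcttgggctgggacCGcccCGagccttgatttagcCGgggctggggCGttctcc
C130026L21Rik: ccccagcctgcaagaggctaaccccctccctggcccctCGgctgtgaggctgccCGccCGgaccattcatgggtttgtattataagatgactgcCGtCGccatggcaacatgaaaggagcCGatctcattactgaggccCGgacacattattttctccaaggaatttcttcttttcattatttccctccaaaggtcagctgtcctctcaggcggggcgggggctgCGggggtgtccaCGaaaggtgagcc
Dnmt3b: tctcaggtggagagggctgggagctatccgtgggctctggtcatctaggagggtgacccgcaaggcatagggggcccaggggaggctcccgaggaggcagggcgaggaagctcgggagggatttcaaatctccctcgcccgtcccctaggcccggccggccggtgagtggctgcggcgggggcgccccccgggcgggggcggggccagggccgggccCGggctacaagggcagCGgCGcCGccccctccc

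Most dense tiles were unmethylated at every stage, and the methylated ones were few. In wildtype and AID-null fibroblasts, 650 and 637 dense tiles stood at 60% methylation or more, 4.51% and 4.42% of them. At 3 weeks the number was 142 in wildtype and 287 in AID-null cultures. The wildtype clones had 162, 188 and 202 such tiles and the AID-null clones 186, 133 and 281. All 8 reprogrammed libraries had fewer such tiles than both fibroblast libraries, and the 2 groups of clones overlapped. The 6 clones averaged 1.33% ± 0.346 (SD, n = 6) of dense tiles at 60% or more against 2.98% ± 1.77 (SD, n = 4) in the 4 bulk and fibroblast libraries (exact two-sided permutation test, p = 0.0952; adjusted over 8 such tests, 0.2). For AID-null against wildtype clones the shares were 1.39% ± 0.52 and 1.28% ± 0.141 (SD, n = 3 each; exact permutation p = 0.9, where 0.1 is the smallest possible).

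Tiles with 3 to 19 positions, the other autosomal tiles tested, set the scale, and dense tiles were lower relative to them in clones. The mean level over dense tiles was 5.79% in both fibroblast libraries, 3.91% and 4.35% in wildtype and AID-null bulk cultures, 3.62%, 3.89% and 4.00% in wildtype clones and 2.93%, 2.54% and 4.09% in AID-null clones. As a percentage of the mean of the sparser tiles in the same library this was 9.14 and 9.28 in fibroblasts, 8.4 and 7.97 at 3 weeks, 7.19 to 7.59 in wildtype clones, and 5.45, 5.18 and 6.62 in AID-null clones. The clones did not overlap with the other libraries, at 6.58 ± 1.04 (SD, n = 6) against 8.70 ± 0.62 (SD, n = 4), a difference of -2.12 (exact two-sided permutation test, p = 0.00952, the smallest possible; 0.0762 adjusted over the 8 tests). All 3 AID-null clones lay below all 3 wildtype clones, 5.75 ± 0.765 against 7.41 ± 0.199 (SD, n = 3 each; exact permutation p = 0.1, the smallest possible).

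**Figure D1:**
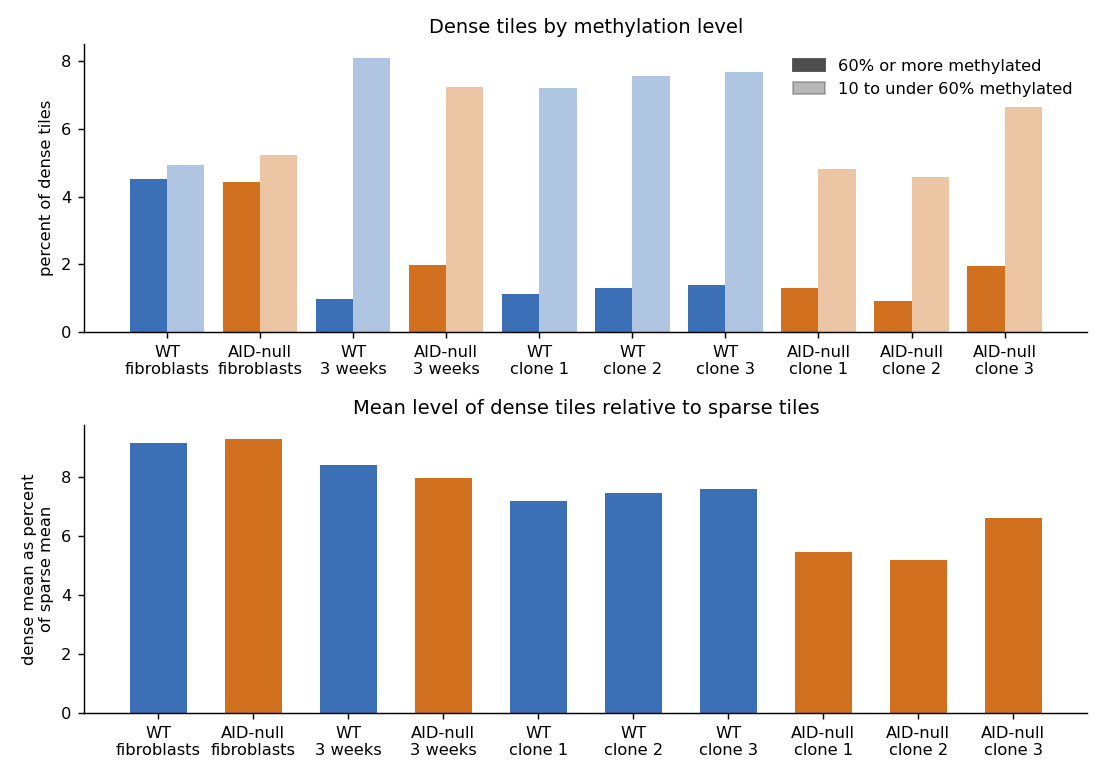
Share of the 14409 dense tiles in each methylation class, in percent, for each of the 10 libraries. The 60% and over class falls from 4.51% and 4.42% in the 2 fibroblast libraries to between 0.923% and 1.99% in the 8 reprogrammed libraries.

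The largest class was under 10% in all 10 libraries and held 12543 dense tiles, 87% of the total. Of these, 4476 (35.7%) carried a paired promoter, and the median tile had 40 positions. Within such a tile the levels of single positions differed by a median SD of 0.498 points. The mean level over the class was 0.628% and 0.679% in fibroblasts, 0.812% and 0.78% at 3 weeks, 0.805% to 0.927% in wildtype clones and 0.453%, 0.41% and 0.808% in AID-null clones. AID-null clones 1 and 2 had the lowest values of the 10 libraries and AID-null clone 3 lay among the wildtype clones. The difference between the clone groups was -0.317 points (exact permutation p = 0.2, n = 3 each).

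The Dnmt3b tile (chr2:153475001-153476000, 101 positions), at the promoter of the de novo DNA methyltransferase, is 1 example of this class. Its level was 0.086% and 0.188% in fibroblasts, 0.152% and 0.401% at 3 weeks and 0.0896% to 0.283% in the 6 clones. The groups overlapped and no library reached 1%. Its RNA meanwhile read 3.2 and 4.78 FPKM in fibroblasts and 389 and 193 FPKM at 3 weeks, with 1 library per group and no test. The other pluripotency genes with a paired dense tile, Fgf4, Klf2, Klf4 and Tfcp2l1, were under 10% everywhere, with a highest level of 2.21% in 1 wildtype clone at Tfcp2l1. These were 5 of 33 listed pluripotency genes, so most of that list was not seen in dense tiles. All 4 paired housekeeping tiles (of 28 genes) and the 1 paired fibroblast gene, Snai1 (of 33), were in the same class, with highest levels of 1.27% and 0.811%. Of 19 tiles at 17 developmental transcription factors, from a list of 100, 16 were in it as well.

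Marveld2, which encodes tricellulin of epithelial tight junctions, was the exception among 4 paired epithelial tiles, from a list of 24. Its level was 18.6% and 18.7% in fibroblasts, 6.73% and 6.25% at 3 weeks, and 0.344% to 1.64% in the 6 clones. Fibroblasts, bulk cultures and clones did not overlap. The difference of -17.6 points in wildtype clones was below the 25 points required of a call, with an adjusted p of 1.05e-05 (quasi-binomial test moderated with limma, Benjamini-Hochberg).

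A set of 627 dense tiles (4.35%) was at 60% or more in both fibroblast libraries. These tiles had fewer positions than dense tiles in general, with a median of 24, and only 15 of them (2.39%) carried a paired promoter. Their median distance to the nearest paired promoter was 44117 bases, against 9020.5 bases for all dense tiles. Their median level was 86.9% and 86.5% in fibroblasts, 49.0% and 57.4% at 3 weeks, 42.6%, 44.6% and 46.1% in wildtype clones and 36.3%, 30.8% and 51.1% in AID-null clones. AID-null clone 2 had the lowest median and the AID-null bulk culture the highest after fibroblasts. Of the 627, 623 were lower in both 3-week libraries than in both fibroblast libraries, and 589 were lower in all 8 reprogrammed libraries. The fibroblast values chose these tiles, so their difference from fibroblasts is given as a description.

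**Figure D2:**
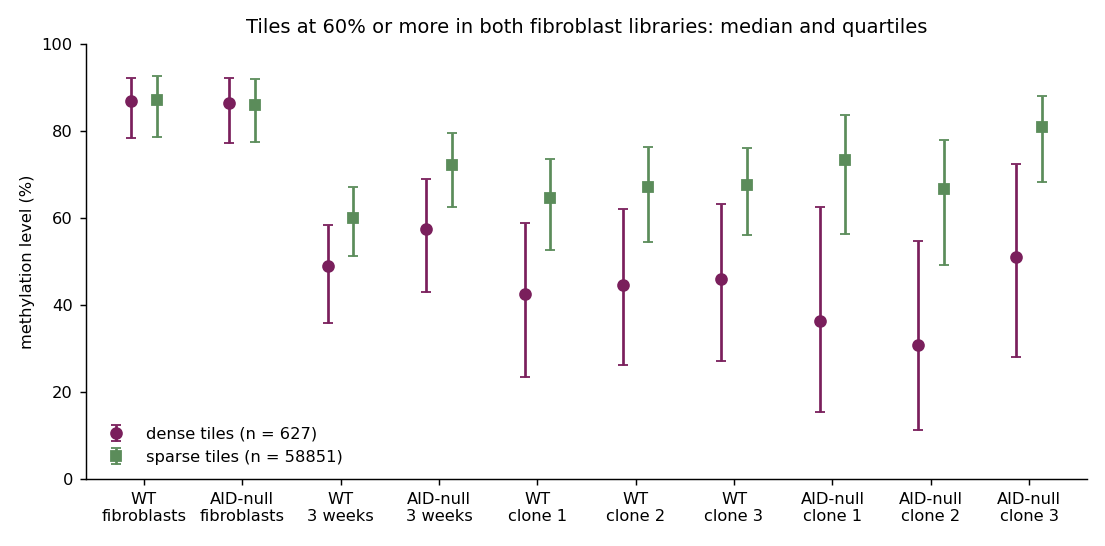
Levels of the 627 dense tiles at 60% or more in both fibroblast libraries, in percent, by library, as median (point) and quartiles (bars), beside the 58851 sparse tiles chosen alike. The dense medians run from 86.9% and 86.5% in fibroblasts to 49.0% and 57.4% at 3 weeks and between 30.8% and 51.1% in the 6 clones.

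In clones the 627 tiles separated. The mean over 6 clones was under 10% in 66, between 10% and 60% in 384 and at 60% or more in 177. In 247 tiles all 6 clones lay under both 3-week libraries, and in 7 all 6 lay above both. The mean of the clones was at least 10 points below the mean of the 3-week libraries in 318 tiles and at least 10 points above it in 5. The mean level of the set was 41.2% ± 7.88 in AID-null and 43.0% ± 1.67 in wildtype clones (SD, n = 3 each; exact permutation p = 0.7), and the groups overlapped. The 3 AID-null clones were all above the 3 wildtype clones in 55 tiles and all below them in 45. The mean of the set was 99.5% in wildtype fibroblasts, and about the same in AID-null ones, of that of the 58851 sparser tiles chosen by the same limit, but 80.4% and 80.2% at 3 weeks, 66.9% to 69.0% in wildtype clones and 59.1%, 55.8% and 66.0% in AID-null clones. This ratio was lower in each AID-null clone than in each wildtype clone, at 60.3 ± 5.22 against 68.0 ± 1.06 (exact permutation p = 0.1, the smallest possible; n = 3 each).

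Retention of methylation fell with density. Among tiles with 3 to 9 positions 66.1% were at 60% or more in both fibroblast libraries, and the share was 40.9% at 10 to 19 positions, 10.3% at 20 to 29, 2.41% at 30 to 49 and 0.627% at 50 to 197. Of the tiles so chosen, the mean over clones was still at 60% or more in 74.0%, 55.2%, 33.2%, 14.4% and 6.9% in the same order of density. The densest of these bins had 29 fibroblast-methylated tiles, of which 2 remained. In the wildtype bulk culture 51.1%, 40.3%, 25.2%, 15.2% and 10.3% remained at 60% or more, and in the AID-null one 80.6%, 69.8%, 50.7%, 29.6% and 17.2%. The AID-null bulk value was the higher in every bin, and 572 of the 627 dense tiles were higher in it than in the wildtype bulk culture. Each bulk culture is 1 library, the summed fibroblast markers were 6580 FPKM in AID-null and 1120 FPKM in wildtype, and their part in this difference was not tested.

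**Figure D3:**
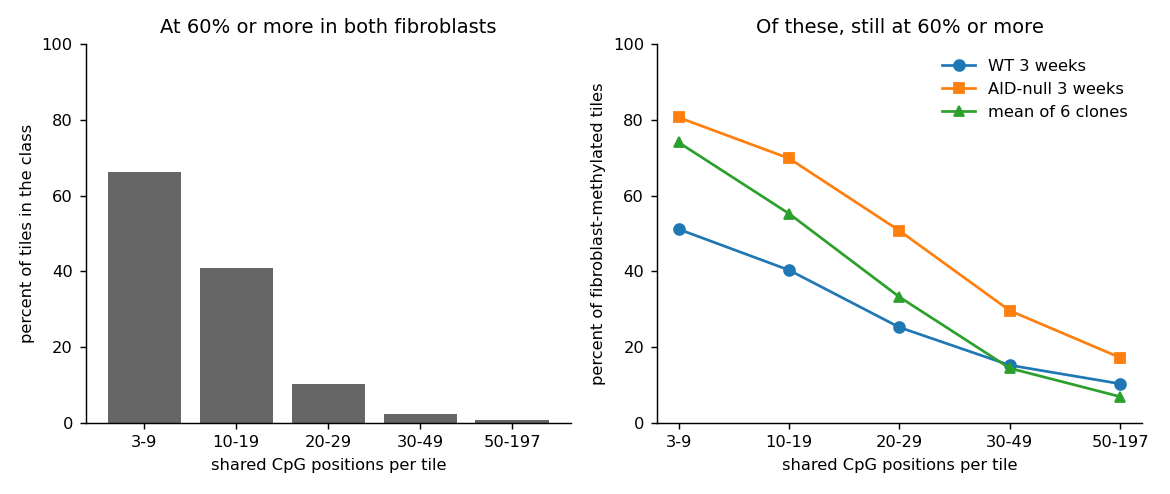
Share of tiles at 60% or more in both fibroblast libraries and the share of those that remain so, in percent, by the number of shared positions in a tile, in bars and in lines (wildtype and AID-null 3 weeks, mean of 6 clones). Both fall with density, from 66.1% and 74.0% (mean of 6 clones) at 3 to 9 positions to 0.627% and 6.9% at 50 to 197.

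Calls were made for each comparison at an adjusted p below 0.05 over all 108523 tiles and a difference of at least 25 points. Against wildtype fibroblasts, wildtype clones were lower in 609 dense tiles (4.23%) and higher in 26 (0.18%), beside 15.5% lower and 3.94% higher over all tiles. Against AID-null fibroblasts, AID-null clones were lower in 616 (4.28%) and higher in 21 (0.146%), beside 12.3% and 4.88%. The lower tiles were largely shared between the genotypes, 564 of them, which is 92.6% of the wildtype list and 91.6% of the AID-null list. In fibroblasts 90.5% (wildtype) and 90.3% (AID-null) of dense tiles were under 10% and could not fall by 25 points. Both lists therefore come from the few tiles left, which favours sharing, and the sharing is a description only. The median difference of the called lower tiles was -44.3 points in wildtype and -47.7 points in AID-null clones. These tests assume that a lone fibroblast library varies like the clones (quasi-binomial test moderated with limma, Benjamini-Hochberg). Of the 661 dense tiles lower in clones in either genotype, 470 were among the 627 methylated in fibroblasts, and 22 carried a paired promoter. In 632 of the 661 (95.6%), AID-null clones 1 and 2 were both lower than AID-null clone 3.

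At 3 weeks the wildtype bulk culture was lower than wildtype fibroblasts in 629 dense tiles and higher in 7, beside 31.4% lower and 2.25% higher over all tiles. The AID-null bulk culture was lower than AID-null fibroblasts in 415 and higher in 2, beside 10.4% and 2.34%. Both genotypes shared 403 lower tiles, 64.1% of the wildtype list and 97.1% of the AID-null list. The dense share lower was 4.37% in wildtype and 2.88% in AID-null. In wildtype and AID-null fibroblasts 90.5% and 90.3% of dense tiles were under 10%, beside 14.0% and 13.6% of sparser tiles. Tiles so low could not fall by the required difference, so the dense and all-tile shares do not compare the extent of loss. Of tiles at 60% or more in both fibroblast libraries, 25.2% (wildtype) and 50.7% (AID-null) remained so at 20 to 29 positions. At 3 to 9 positions 51.1% and 80.6% remained. The comparisons of 3 weeks with fibroblasts set the calls of 2 libraries against each other with Fisher's exact test. They say nothing of the spread between cultures. Calls from the same read are not independent, so these p-values are too small. With the quasi-binomial test, the AID-null count was 183 in place of 417 for both directions together.

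Few dense tiles were called between the genotypes at 25 points. In fibroblasts 1 was higher and 1 lower in the AID-null library, beside 0.366% and 0.594% over all tiles. The first, chr5:121145001-121146000, read 34.1% in wildtype and 61.2% in AID-null, and the second, chr17:57394001-57395000, read 76.9% and 50.4%. At 3 weeks 2 were higher and 0 lower in the AID-null library, beside 2.26% and 0.0553% over all tiles, while 6519 had an unadjusted p below 0.05 by Fisher's exact test. One, at chr7:17607001-17608000, stood at 93.7% and 96.0% in fibroblasts, 55.9% and 82.5% in bulk cultures, 68.8% to 74.0% in wildtype clones and 73.7% to 83.8% in AID-null clones. The other, at chr8:125951001-125952000, stood at 94.3% and 94.8% in fibroblasts, 59.1% and 87.8% at 3 weeks, 63.6% to 65.6% in wildtype and 72.6% to 79.0% in AID-null clones. In both, the wildtype bulk culture had the lowest value of all 10 libraries. None of these 4 calls passed the quasi-binomial test, and neither fibroblast call passed with the mean of positions. With 10 points in place of 25, 344 dense tiles were higher and 13 lower in the AID-null than in the wildtype library at 3 weeks. The share over all tiles at 10 points is not given, so these counts do not set dense tiles apart. Between AID-null and wildtype clones 0 dense tiles were called in either direction, beside 0.00184% higher and 0.000921% lower over all tiles, with 1873 at an unadjusted p below 0.05 by the same quasi-binomial test and 0 called with limma on log2 ratios. Without AID-null clone 3, 23 dense tiles were called lower in the AID-null clones, again without a share over all tiles to set beside them.

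Clones of 1 genotype also differed among themselves. No dense tile was 25 or more points apart between any pair of wildtype clones. Between AID-null clones 1 and 2 there were 2 such tiles, between 1 and 3 there were 35, and between 2 and 3 there were 104. AID-null clone 3 thus stood apart from the other AID-null clones, on the side of higher methylation in most of the tiles that were lost or gained.

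Few dense tiles were called between the 3-week cultures and the clones. In wildtype 2 dense tiles were called lower and 0 higher, beside 0.00184% and 0.0% over all tiles, with 594 at an unadjusted p below 0.05 (quasi-binomial test) and none called with limma. In AID-null 50 were lower and 1 higher, beside 0.29% and 0.0756% over all tiles, and the dense share lower was 0.347% against 0.282% of sparser tiles. The AID-null count of 51 depended on the clones in the test. It became 239 without AID-null clone 3, 1 and 2 without AID-null clones 1 and 2 in turn, and 0 with limma.

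A run of 3 adjoining dense tiles lay at chr7:4981001-4984000. Its nearest paired promoter was that of Zfp784, a zinc finger gene, at 6649 to 8649 bases. The run was lower in bulk cultures than in fibroblasts and lower still in clones. The larger difference was that between fibroblasts and bulk cultures. The first tile of the run read 94.5% and 94.8% in fibroblasts and 41.3% and 36.7% at 3 weeks. It read 5.86%, 5.85% and 5.93% in wildtype clones and 2.85%, 0.864% and 11.5% in AID-null clones. The second read 88.3% and 88.7%, then 37.3% and 28.5%, then 1.31% to 3.82% in wildtype and 0.665% to 3.88% in AID-null clones. The third read 90.0% and 87.1%, then 37.5% in the wildtype bulk culture, then 2.37% to 5.63% in wildtype and 1.76% to 5.77% in AID-null clones. Fibroblasts, bulk cultures and clones did not overlap in any of the 3 tiles. In the first tile the bulk cultures differed from fibroblasts by -53.2 points in wildtype and -58.1 points in AID-null. The clones differed from the bulk cultures by -35.5 and -31.6 points. The second and the third tiles were the 2 wildtype calls, and all 3 were among the AID-null calls. Both wildtype calls were lost when any 1 of the wildtype clones was left out, with 0 calls each time.

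In AID-null clones the largest loss was at chr5:93371001-93372000, a tile of 92 positions, 102649 bases from the nearest paired promoter, that of Sowahb. It read 95.8% and 96.3% in fibroblasts, 23.2% and 30.1% at 3 weeks, 7.8%, 8.28% and 8.46% in wildtype clones and 5.49%, 2.78% and 10.6% in AID-null clones. The 3 stages did not overlap. The difference from fibroblasts was -87.6 points in wildtype clones (adjusted p = 9.85e-07) and -90.0 points in AID-null clones (adjusted p = 9.17e-07; quasi-binomial test with limma, Benjamini-Hochberg).

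Of the gene lists, only that of germ cell genes had tiles at 60% or more in both fibroblast libraries. The list of 35 germline genes gave 5 paired dense tiles, and 4 of them, Mael, Ddx4, Hormad1 and Slc25a31, were at 60% or more in both fibroblast libraries and lower in both genotypes at 3 weeks and in clones. The median difference over the 5 tiles was -49.2 points in wildtype clones and -55.5 points in AID-null clones, beside 0.0668 and -0.0102 over all dense tiles. These genes are known to be silenced by promoter methylation outside germ cells.

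Mael, a factor of the piRNA pathway that represses transposons in germ cells, lies at chr1:168168001-168169000 (36 positions). Its tile read 92.5% and 90.2% in wildtype and AID-null fibroblasts, 44.4% and 32.2% at 3 weeks, 20.2%, 20.1% and 27.7% in wildtype clones and 14.3%, 14.2% and 26.1% in AID-null clones. Over the whole tile the 3 stages did not overlap, and AID-null clone 3 lay within the range of the wildtype clones. The fall from fibroblasts was -69.8 points in wildtype clones (adjusted p = 3.43e-05) and -72.0 points in AID-null clones (adjusted p = 2.07e-05, quasi-binomial test with limma). Within the printed sequence the median over the 10 listed CpGs was 93.5% and 90.5% in fibroblasts, 39.1% and 34.2% at 3 weeks, 17.9% to 24.8% in wildtype clones and 14.1%, 14.4% and 39.9% in AID-null clones. There AID-null clone 3 lay above both bulk cultures, so the last 2 stages overlapped. Its RNA was listed at 0 in both fibroblast libraries and at 15.1 and 73.7 FPKM at 3 weeks.

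Ddx4, the Vasa RNA helicase of germ cells, lies at chr13:113442001-113443000 (50 positions). Its tile read 91.5% and 89.4% in fibroblasts, 46.3% and 40.7% at 3 weeks, 19.6%, 24.4% and 28.4% in wildtype clones and 11.3%, 11.6% and 18.8% in AID-null clones. The stages did not overlap, and all AID-null clones were under all wildtype clones. The differences from fibroblasts were -67.3 (adjusted p = 1.44e-05) and -75.5 points (adjusted p = 7.7e-06, quasi-binomial test with limma). Its RNA, unlike that of Mael, was present in fibroblasts, at 4.74 and 19.6 FPKM, with 7.87 and 8.78 FPKM at 3 weeks.

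Hormad1, a protein of the meiotic chromosome axis, lies at chr3:95363001-95364000 (34 positions). It read 88.1% and 85.6% in fibroblasts, 47.4% and 47.6% at 3 weeks, 33.8%, 41.0% and 41.7% in wildtype clones and 23.1%, 22.5% and 44.5% in AID-null clones. All clones were below the bulk cultures, and AID-null clone 3 was the highest clone. The differences from fibroblasts were -49.2 (adjusted p = 0.00156) and -55.5 points (adjusted p = 0.000805, quasi-binomial test with limma). RNA was listed at 0 in fibroblasts and at 33.0 and 38.0 FPKM at 3 weeks.

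Slc25a31, the ADP/ATP carrier of the testis, lies at chr3:40512001-40513000 (29 positions). It read 95.2% and 93.3% in fibroblasts, 53.9% and 56.6% at 3 weeks, 53.7%, 50.5% and 59.2% in wildtype clones and 40.9%, 42.7% and 61.0% in AID-null clones. Here the clones overlapped the bulk cultures. It kept more methylation than the other 3, with differences of -40.7 (adjusted p = 0.00183) and -45.1 points (adjusted p = 0.00121, quasi-binomial test with limma). RNA was listed at 0 in fibroblasts and at 3.82 and 6.24 FPKM at 3 weeks. The fifth listed gene, Smc1b of meiotic cohesin, shares its tile with Ribc2. The tile stood at 16.2% to 27.1% in the 4 bulk and fibroblast libraries, 12.4% to 14.0% in wildtype clones and 2.35%, 5.65% and 14.6% in AID-null clones. It was not called. The 300 bases of the Smc1b promoter alone read 5.4% and 2.8% in fibroblasts, 2.33% and 1.32% at 3 weeks and 0.0957% to 3.17% in the 6 clones.

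Of all 15 fibroblast-methylated dense tiles with a paired promoter, which were named after their values were seen, 14 were called lower in clones of both genotypes and in both bulk cultures. The fibroblast values chose these tiles and enter each call, so the count is a description only. Of all 627 fibroblast-methylated dense tiles, 470 were called lower in clones of either genotype. Beyond the 4 above the 14 included several more genes known from germ cells. The tile of Dmrtb1, a transcription factor of spermatogonia, read 93.8% and 93.2% in fibroblasts, 36.7% and 38.8% at 3 weeks and 8.28% to 22.0% in the 6 clones. That of Hsf5, a heat shock factor of the testis, read 87.8% and 85.7%, then 26.9% and 38.0%, then 6.85% to 19.3%. That of Papolb, a poly(A) polymerase of the testis, read 72.6% and 67.6%, then 18.1% and 27.3%, then 2.75% to 11.4%. In each of these 3 the stages did not overlap. The tile of Zglp1, a zinc finger factor of germ cells, read 88.7% and 82.7%, then 32.1% and 47.3%, then 8.16% to 27.1%. Henmt1, which methylates piRNAs, read 71.6% and 60.9%, then 33.9% and 30.1%, then 8.75% to 31.2%. Rpl39l, a ribosomal protein paralog, read 74.2% and 76.4%, then 32.8% and 43.9%, then 28.9% to 51.6%. Zglp1 clones lay below both bulk cultures, and clones of the last 2 overlapped them. The rest were the tiles of Naa11, a protein acetyltransferase gene, with 4930467D21Rik, of 4933428G20Rik, and of the predicted genes Gm34222 and Gm46055. For these 15 tiles the 95% Wilson interval of a level was at most 2.09 points on either side. It takes each call as independent, which calls of the same read are not, so it understates even the counting error.

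The exception was the tile of Tmem267 and 3110070M22Rik, which face each other at chr13:120277001-120278000 (90 positions). It read 68.4% and 80.1% in fibroblasts, 62.2% and 65.1% at 3 weeks, 56.7% to 58.6% in wildtype clones and 71.0% to 73.2% in AID-null clones. All AID-null clones were above all wildtype clones. It had 44441 to 131622 calls per library, far above the median dense tile, and its positions differed by an SD of 25.4 points, against a median of 10.2 points in the class.

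**Figure D4:**
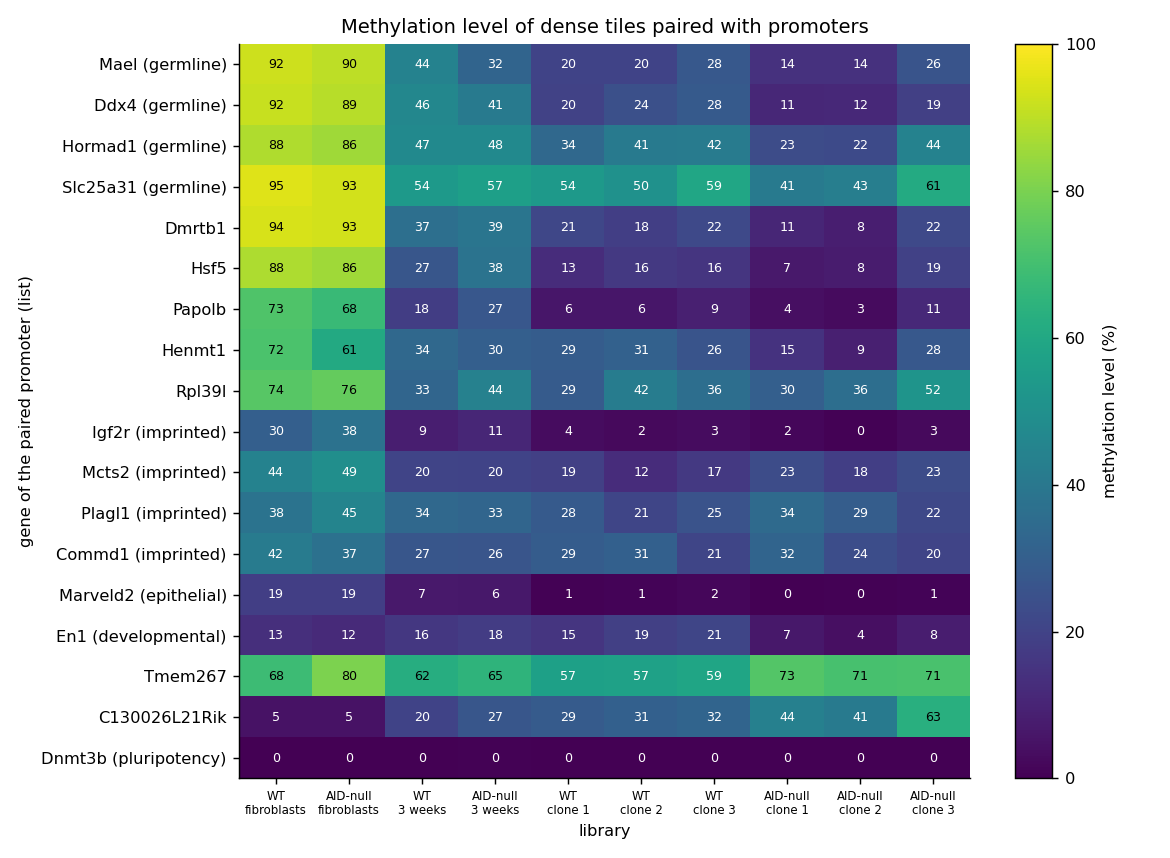
Heat map of the methylation level, in percent, of dense tiles with a paired promoter (rows, gene list in brackets) in the 10 libraries (columns). The 4 listed germ cell genes are at 85.6% or more in fibroblasts and at 61.0% or less in all 8 reprogrammed libraries, while Dnmt3b stays under 1% in all 10 libraries.

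A pair of short motifs were counted in the 300 bases of each promoter, on both strands: CACGTG, the E-box bound by several helix-loop-helix factors, and GCGGGAA, a form of the E2F6 site. CACGTG was in 7 of the 18 promoters of fibroblast-methylated dense tiles (38.9%, 95% Wilson interval 20.3% to 61.4%), in 595 of 5533 promoters of dense tiles under 10% everywhere (10.8%) and in 2243 of 31396 autosomal promoters (7.14%). GCGGGAA was also in 7 of the 18, in 597 of the 5533 (10.8%) and in 1453 of all promoters (4.63%). Ddx4, Hormad1 and Slc25a31 held both. The 18 are not independent, since facing promoters share a tile and alternative starts of 1 gene share sequence, and a match is only a match of letters.

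RNA could be read for 4490 of the 5089 genes with a paired dense tile, with 1 library per group and no test. Of 13 genes whose promoter tile was methylated in fibroblasts, 6 (46.2%) reached 1 FPKM in each fibroblast library and 11 (84.6%) in each 3-week library. Of 4383 genes whose tile was under 10% everywhere, 91.8% and 92.4% did so in fibroblasts and 94.7% and 94.3% at 3 weeks. On the log2(FPKM + 1) scale, which understates changes of low genes, the median difference from fibroblasts to 3 weeks was 2.27 in wildtype and 2.86 in AID-null over the 11 methylated-promoter genes with 1 FPKM in either library. It was 0.07 and -0.17 over the always-low genes. Without the minimum of 1 FPKM the values for all 13 were 1.31 and 0.92. In wildtype, 8 of the 11 were higher by 1 or more and 2 lower, and in AID-null 6 were higher and 2 lower. Of 4198 always-low genes with 1 FPKM in either library, 843 (20.1%) were higher by 1 or more in wildtype and 570 (13.6%) in AID-null. A gene could enter the 11 through its 3-week library alone, and such a gene could only rise. Most always-low genes already reached 1 FPKM in fibroblasts. The medians and counts under this minimum therefore do not compare like with like and are a description only. Rpl39l read 60.1 and 32.6 FPKM in fibroblasts and 495 and 304 FPKM at 3 weeks, and Naa11 read 0 in both fibroblast libraries and 6.58 and 19.3 FPKM at 3 weeks. Tmem267 went the other way, from 96.4 and 90.2 FPKM to 42.1 and 16.0 FPKM. Henmt1 was listed at 0 in all 4. In such bulk samples fewer expressing cells and less RNA per cell cannot be told apart, and likewise a middle methylation level can be a mixture of cells.

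Imprinted genes gave 6 paired dense tiles of 32 listed, and 4 of them had middle levels in fibroblasts. Igf2r, the receptor that clears the growth factor IGF2, lost nearly all methylation of its promoter tile (chr17:12962001-12963000, 57 positions). It read 30.4% and 37.8% in fibroblasts, 8.59% and 10.6% at 3 weeks, 3.5%, 2.41% and 3.38% in wildtype clones and 1.95%, 0.442% and 2.65% in AID-null clones. The 3 stages did not overlap. The differences from fibroblasts were -27.3 points in wildtype clones (adjusted p = 4.28e-05) and -36.2 points in AID-null clones (adjusted p = 6.49e-06, quasi-binomial test with limma). Its RNA was 173 and 144 FPKM in fibroblasts and 155 and 171 FPKM at 3 weeks.

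Mcts2, an imprinted retrogene (chr2:152512001-152513000, 25 positions), read 44.2% and 49.4% in fibroblasts, 20.5% in the wildtype bulk culture with the AID-null one at -0.546 points from it, 18.9%, 12.5% and 16.6% in wildtype clones and 23.1%, 18.4% and 23.4% in AID-null clones. Most of its difference from fibroblasts was also seen in the bulk cultures, which the clones overlapped. The differences of clones from fibroblasts were -28.2 (adjusted p = 0.00773) and -27.8 points (adjusted p = 0.0126, quasi-binomial test with limma).

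Plagl1, an imprinted zinc finger gene (chr10:12810001-12811000, 63 positions), read 38.0% and 45.2% in fibroblasts, 33.6% and 32.8% at 3 weeks, 28.2%, 20.8% and 25.4% in wildtype clones and 34.4%, 29.4% and 21.8% in AID-null clones. Its differences of -13.2 and -16.7 points did not pass (adjusted p = 0.234 and 0.174, quasi-binomial test with limma). Over the 8 listed CpGs of the printed Plagl1 sequence, the AID-null median was 24.4% in fibroblasts and 28.9%, 51.9% and 0.0% in clones. The wildtype median there was 35.2% in fibroblasts and 15.6%, 2.71% and 22.1% in clones. Over the 300 bases of the promoter, AID-null fibroblasts read 42.2% and AID-null clones 34.8%, 35.9% and 14.9%. Commd1, a gene of copper handling (chr11:22872001-22873000, 69 positions), read 41.6% and 37.4% in fibroblasts, 26.9% and 26.3% at 3 weeks and 20.5% to 32.4% in the 6 clones, and was not called. The tiles of Gnas and Grb10 were under 10% everywhere. Over the 6 imprinted tiles the median difference was -13.9 points in wildtype and -14.3 points in AID-null clones, and 2 of 6 were called lower in each.

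In all, 146 dense tiles (1.01%) lay between 10% and 60% in all 10 libraries, and 9 of them carried a paired promoter. The imprinted tiles of Mcts2, Plagl1 and Commd1 are among these 9. Some of the promoters were themselves low in fibroblasts over their 300 bases. Agpat2 read 0.221% and 0.622% there, Esrrg 0.969% and 1.01%, and Cda 0.141% and 0.268%. Those of Mcts2, Plagl1, Commd1, Romo1, Nfs1, Fam166c and Sycp2l were above 10% in both fibroblast libraries. Single positions in the 146 tiles differed by a median SD of 15.3 points, more than in either of the other classes above. Their mean level was 24.0% ± 5.41 in AID-null and 27.7% ± 0.979 in wildtype clones (SD, n = 3 each; exact permutation p = 0.4). The tile of Romo1, a mitochondrial membrane protein, and Nfs1, a cysteine desulfurase, at chr2:155969001-155970000 read 30.4% and 27.5% in fibroblasts, 11.1% and 13.7% at 3 weeks, 17.6%, 12.5% and 10.1% in wildtype clones and 27.9%, 26.2% and 25.6% in AID-null clones. All AID-null clones were above all wildtype clones there, and the tile was not called.

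A set of 101 dense tiles (0.701%) stayed at 60% or more in all 10 libraries. None carried a paired promoter, their median distance from one was 104459.5 bases, and they had a median of 22 positions. One, at chr10:67874001-67875000, read 94.0% and 95.5% in fibroblasts, 77.3% and 89.7% at 3 weeks, 80.3% to 81.9% in wildtype clones and 85.9% to 91.1% in AID-null clones. Even here the wildtype bulk culture was the lowest library. The tile with the highest lowest level, chr2:98506001-98507000, had 808487 to 2053032 calls per library, and 2 of the 101 had a median of 30000 calls or more, as did 20 dense tiles in all.

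Gain of methylation was rare in dense tiles. In either genotype, 31 were called higher in clones than in fibroblasts, 16 of them in both, which is 61.5% of the wildtype list and 76.2% of the AID-null list. The AID-null count of 21 became 11 without AID-null clone 3, and 11 at a coverage of 20 or more. The 31 had few positions for dense tiles, with a median of 21 and at most 42, and 15 were under 10% in both fibroblast libraries. Their median level was 7.7% and 9.41% in fibroblasts, 29.4% and 28.4% at 3 weeks, 48.7%, 52.5% and 53.6% in wildtype clones and 35.2%, 32.0% and 58.1% in AID-null clones. In 30 of the 31 AID-null clones 1 and 2 were lower than AID-null clone 3. The same calls chose these tiles, so their levels are a description. The share of tiles whose clone mean was 25 points or more above fibroblasts was 7.05% at 3 to 9 positions, 3.13% at 10 to 19, 0.392% at 20 to 29, 0.0385% at 30 to 49 and 0 of 4628 at 50 or more. Only 6 dense tiles went from under 10% in both fibroblast libraries to 25% or more in all 6 clones.

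The largest gain in AID-null clones was at chr7:143694001-143695000 (31 positions), 811729 bases from the nearest paired promoter, that of Ebf3. It read 19.5% and 15.8% in fibroblasts, 54.4% and 50.9% at 3 weeks, 66.8%, 78.8% and 79.4% in wildtype clones and 83.5%, 79.9% and 88.1% in AID-null clones. The stages did not overlap, and all AID-null clones were above all wildtype clones. The differences were 55.5 points (adjusted p = 0.000257) and 68.0 points (adjusted p = 2.74e-05, quasi-binomial test with limma). A tile at chr5:120246001-120247000 read 3.03% and 3.98% in fibroblasts, 33.0% and 31.5% at 3 weeks and 48.6% to 60.6% in the 6 clones.

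The noncoding gene C130026L21Rik (chr5:112010001-112011000, 21 positions) was the only gaining tile with a paired promoter, whose sequence is shown above. It read 4.69% and 4.84% in fibroblasts, 20.3% and 26.9% at 3 weeks, 28.8%, 30.8% and 32.1% in wildtype clones and 43.6%, 41.3% and 62.9% in AID-null clones. The stages did not overlap, and all AID-null clones were above all wildtype clones. The differences were 25.9 points (adjusted p = 0.00939) and 44.4 points (adjusted p = 0.000304, quasi-binomial test with limma). Its RNA was listed at 0 in all 4 libraries.

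**Figure D5:**
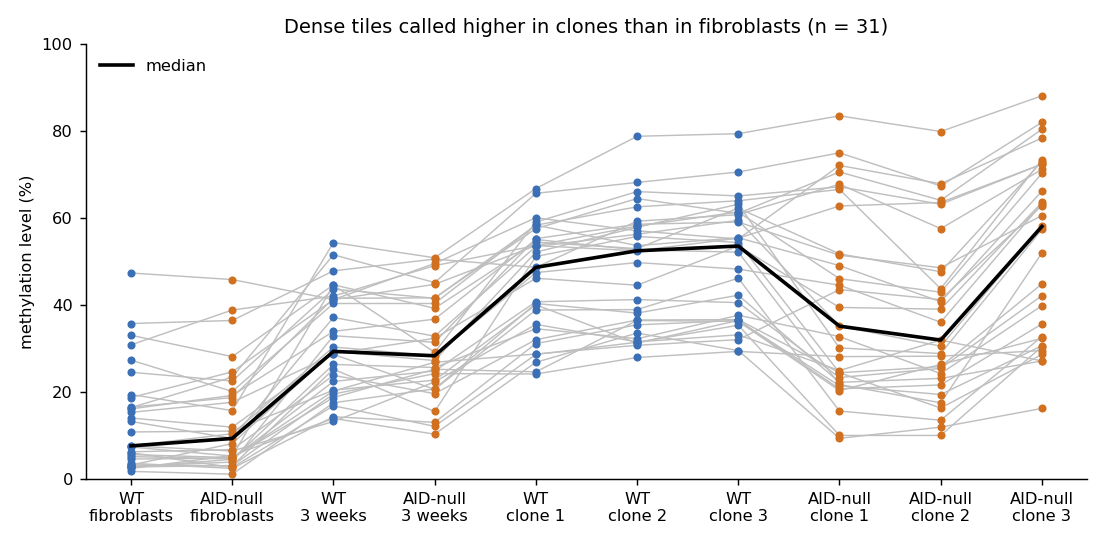
Levels of the 31 dense tiles called higher in clones of either genotype than in fibroblasts, in percent, by library. Each grey line joins the 10 values of 1 tile and the black line the medians, which run from 7.7% and 9.41% in fibroblasts to between 32.0% and 58.1% in the clones.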

How the data were processed

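Bisulphite sequencing libraries (10) and RNA libraries (4) were analysed as deposited. Per the file headers, the deposited methylation tables give read counts (coverage) per cytosine and strand and the percent of reads that are C or T; every listed position has 10 reads or more. The deposited RNA tables give FPKM. Per the submitters' processing notes, Bismark and methylKit (methylation) and TopHat and Cufflinks (RNA) were used with mm9; settings are not given in the sources used here. A tile's level is the read-weighted percent over positions listed in all 10 libraries, so positions missing from 1 library are left out. Pairs of single libraries were compared with Fisher's exact test. Comparisons with clones used a quasi-binomial model with limma 3.58.1 in R 4.3.3, with the spread taken from clones. Adjustment (Benjamini-Hochberg) was over all 108523 tiles. RNA differences are on a log2(FPKM + 1) scale computed from the authors' FPKM. Python 3.11.15 and SciPy 1.17.1 gave the exact permutation tests. The quasi-binomial test was tested on simulated data. Fisher's exact test was only checked for giving the p-values of SciPy on real tiles.

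The members, gene lists and tests were chosen with earlier results of these data known. Tiles were named if paired with a listed gene (germline, imprinted, pluripotency, epithelial, fibroblast, developmental, housekeeping), if among the largest called differences of a comparison, or if highest among tiles methylated everywhere. Clone numbers did not pair the genotypes. Alternatives covered the difference required, positions per tile, tile borders, coverage, weighting of positions, very deep positions, the test, pairing sites, the RNA pseudocount and each clone in turn; the weighting for clones, and the clones left out of the library means, were chosen after seeing the data. Chromosome 18 promoters were not used here, and X-linked tiles stand apart. A check of the genotype labels is not reported here.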

Additional observations from a re-analysis of the deposited data

Results flagged for a closer look

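The dense tile of En1, a homeobox gene of the midbrain and limbs (chr1:122498001-122499000), lay on opposite sides of its fibroblast level in the clones of each genotype. It read 13.3% and 11.9% in wildtype and AID-null fibroblasts, 16.1% and 17.6% at 3 weeks, 18.5% ± 2.83 (SD, n = 3) in wildtype clones and 6.52%, 4.21% and 7.84% in AID-null clones. Wildtype clones were 5.13 points above wildtype fibroblasts and AID-null clones -5.68 points from AID-null fibroblasts, with every clone on its own side. In the promoter window alone the level was 1.5% and 1.45% in fibroblasts, 4.1% to 9.03% in wildtype clones and 5.21%, 0.432% and 4.96% in AID-null clones, so 2 of the 3 AID-null clones lay above their fibroblasts there. Neither difference passed the test or the 25 points of a call (adjusted p = 0.362 in wildtype and 0.294 in AID-null, quasi-binomial test with limma). AID-null clones were -12.3 points from wildtype clones, which did not pass either (adjusted p = 0.204, quasi-binomial test with limma). Whether the movement from fibroblasts differed between the genotypes was not tested.

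The 266 X-linked dense tiles, which are outside the autosomal comparisons, averaged 30.5% in wildtype and 5.52% in AID-null fibroblasts, 9.81% and 3.5% at 3 weeks, and 2.14% to 3.81% in the 6 clones. The wildtype fibroblast library stood apart from the rest. Xist RNA read 456 FPKM in wildtype fibroblasts, 149 FPKM in the wildtype culture at 3 weeks and 0.99 and 1.78 FPKM in the AID-null libraries.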

How the results depend on the processing

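Of 183 alternative values for the counts and means, 126 kept their direction and their side of the threshold. Of the others 52 moved, 2 reversed, 2 became stronger and 1 became weaker. All 486 recomputed differences of 27 named tiles between clones and fibroblasts kept their direction and side. Outside the 183, a further 69 values moved, nearly all of them shares and means of single libraries. In wildtype fibroblasts the share at 60% or more went from 4.51% to 22.5% with 10 or more positions and 1.64% with 30 or more. The mean level there went from 5.79% to 22.9% and 2.75%. Counts of calls moved mostly with the required difference and with the positions per tile. They are counts of dense tiles only, given without the share over all tiles. With 10 points the counts were 59 (AID-null against wildtype fibroblasts, main count 2), 1087 (wildtype 3 weeks, 636), 936 (AID-null 3 weeks, 417), 357 (AID-null against wildtype 3 weeks, 2), 990 (wildtype clones against fibroblasts, 635), 123 (AID-null clones against 3 weeks, 51) and 1 (AID-null against wildtype clones, 0). With 40 points they were 0, 279, 146, 0, 377, 410 (AID-null clones against fibroblasts, 637), 0 (wildtype clones against 3 weeks, 2) and 0 (AID-null clones against 3 weeks). With 30 or more positions the first 6 counts in this order were 0, 192, 155, 0, 205 and 215. Against 3 weeks they were 2 for wildtype clones and 20 for AID-null clones. With 10 or more positions, 27591 tiles were dense and the first 6 counts were 10, 4433, 2087, 62, 3792 and 3539. Against 3 weeks they were then 2 for wildtype clones and 171 for AID-null clones. AID-null against wildtype clones gave 1. The quasi-binomial test gave 0 for both genotype comparisons of single libraries and 183 for AID-null 3 weeks. The mean of positions gave 0 in fibroblasts and 1 for AID-null against wildtype 3 weeks, where leaving out very deep positions and a coverage of 20 also gave 1. limma gave 0 for clones against 3 weeks in both genotypes.

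Leaving out 1 clone in turn gave 0 to 7 for wildtype clones against 3 weeks (0 without any 1 of the wildtype clones, 7 without AID-null clone 3), 1 to 239 for AID-null clones against 3 weeks and 0 to 23 for AID-null against wildtype clones. The share at 60% or more, clones minus other libraries, was -1.64 and became -0.744 with 30 or more positions (exact permutation p = 0.0381) and -1.78 with a class border of 50% (exact permutation p = 0.0286). For AID-null minus wildtype clones it was 0.111 and became -0.215 with that border and 1.16 with 10 or more positions; leaving out 1 clone in turn gave -0.17 (without AID-null clone 3) to 0.344. The mean level, clones minus other libraries, was -1.45 and became -3.38 with 10 or more positions (exact permutation p = 0.0952). The cause was not tested. The RNA medians of 2.27 and 2.86 became 3.04 and 3.22 with a pseudocount of 0.1 FPKM, and 1.31 and 0.92 with no minimum. A fit with clone number as a replicate block called 0 dense tiles between the genotypes, as did the fit without it; the deviations of same-numbered clones correlated at 0.07, -0.01 and 0.20 over 1488 tiles.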
